A study of Mus musculus with 12 samples.

Results

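The vomeronasal receptor genes were taken as every name that starts with Vmn1r or Vmn2r in the gene lists of the autosomal copy-number segments of 15376T and 14837T. The rule found 178 names, the same in both lines, among the 21139 gene names of the autosomal segments. They comprised 86 Vmn1r and 92 Vmn2r names on 8 chromosomes. Each lay in 1 segment per line. 15376T and 14837T are primary pancreatic ductal adenocarcinoma (PDAC) lines isolated from C57BL/6 mice that carried, among other alleles, ROSA26-LSL-rtTA-IRES-GFP, p48-Cre, which acts in pancreatic progenitors, and Trp53 L/+. Both were cultured in DMEM with serum and doxycycline, and both libraries are labelled WT. The age of the mice was not given in the sources used here. Genomic DNA of each line was examined by whole-exome sequencing (WES) in 1 library, named WES-15376T and WES-14837T. There are therefore no replicates, no tests and no error between libraries, and genes that share a segment share its values. The tail DNA and the RNA libraries of the study were not analysed here.

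Vomeronasal receptors are G protein-coupled receptors of the sensory neurons of the vomeronasal organ, which detects pheromones and other chemical signals of conspecifics and predators. Vmn1r genes encode receptors with a short extracellular end from a single coding exon and belong to neurons that use the G protein subunit Gnai2. Vmn2r genes have several coding exons, encode a long extracellular ligand-binding domain and belong to neurons that use Gnao1. Both families lie in clusters of tandem copies, many of which are pseudogenes. DNA copy number says nothing of their expression.

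Near-identical copies are hard to tell apart in short reads, so 3 pairs are shown by the 250 bases before the start that a table of RefSeq gives for each (build GRCm38.p6, 5′ to 3′ on the gene's strand). Capitals mark the bases that differ within a pair. Of the 86 protein-coding Vmn1r members, 61 were annotated as a short stretch whose length is a multiple of 3, which is what a coding region alone would give, so the bases before the start need not be a promoter in the strict sense.

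Vmn2r6 (chr3:64559819-64560068, minus strand) and Vmn2r7 (chr3:64719603-64719852, minus strand) were the most alike Vmn2r members. They shared 248 of 250 bases. The start given for Vmn2r6 lies inside the annotated gene, and so do these bases.
Vmn2r6: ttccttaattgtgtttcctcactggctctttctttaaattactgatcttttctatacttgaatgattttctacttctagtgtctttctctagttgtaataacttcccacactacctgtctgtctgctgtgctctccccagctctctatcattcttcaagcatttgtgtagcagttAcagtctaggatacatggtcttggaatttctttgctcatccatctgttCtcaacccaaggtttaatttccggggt
Vmn2r7: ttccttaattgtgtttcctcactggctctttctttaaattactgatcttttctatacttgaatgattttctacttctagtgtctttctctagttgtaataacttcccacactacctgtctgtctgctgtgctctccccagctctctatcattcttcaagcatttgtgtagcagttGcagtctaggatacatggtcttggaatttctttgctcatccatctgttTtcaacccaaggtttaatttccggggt

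Vmn1r168 (chr7:23540470-23540719, plus strand) and Vmn1r177 (chr7:23866450-23866699, minus strand) were the most alike Vmn1r members and shared 244 of 250 bases.
Vmn1r168: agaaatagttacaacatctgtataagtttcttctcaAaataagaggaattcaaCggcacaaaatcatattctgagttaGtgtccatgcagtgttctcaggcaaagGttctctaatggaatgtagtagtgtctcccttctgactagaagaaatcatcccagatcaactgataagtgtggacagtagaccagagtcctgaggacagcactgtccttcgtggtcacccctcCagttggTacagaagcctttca
Vmn1r177: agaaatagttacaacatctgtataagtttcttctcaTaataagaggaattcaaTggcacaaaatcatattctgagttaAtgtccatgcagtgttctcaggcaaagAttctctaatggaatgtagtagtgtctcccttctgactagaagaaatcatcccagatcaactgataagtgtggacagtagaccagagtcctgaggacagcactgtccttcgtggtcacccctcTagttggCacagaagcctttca

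Vmn1r174 (chr7:23753661-23753910, plus strand) is the Vmn1r member most like a receptor that no segment names. That receptor is Vmn1r173 (chr7:23702092-23702341, plus strand), and the pair shared 247 of 250 bases.
Vmn1r174: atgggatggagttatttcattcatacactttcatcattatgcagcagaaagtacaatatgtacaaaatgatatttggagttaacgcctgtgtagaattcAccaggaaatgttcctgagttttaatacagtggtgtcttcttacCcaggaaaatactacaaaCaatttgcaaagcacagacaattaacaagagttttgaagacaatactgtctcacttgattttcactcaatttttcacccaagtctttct
Vmn1r173: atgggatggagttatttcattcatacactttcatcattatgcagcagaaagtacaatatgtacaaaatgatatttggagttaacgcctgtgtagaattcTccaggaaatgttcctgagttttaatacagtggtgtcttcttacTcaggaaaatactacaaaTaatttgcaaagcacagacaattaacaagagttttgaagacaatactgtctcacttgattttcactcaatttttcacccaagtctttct

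Only about every other receptor gene entered the copy-number data. RefSeq holds 354 autosomal protein-coding genes with a Vmn1r or Vmn2r symbol, and 49.7% of them were named in a segment. The share was 37.2% for Vmn1r (86 of 231) and 73.2% for Vmn2r (90 of 123). For all 20661 autosomal protein-coding genes it was 91.7%, and for olfactory receptor genes (Olfr), the other large family of chemosensory receptors, it was 88.0% (971 of 1104). Pseudogenes were almost absent, with Vmn2r-ps11 and Vmn2r-ps54 the 2 named of 269. None of the unnamed receptors was found under an older symbol.

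The unnamed receptors were concentrated on a few chromosomes. On chromosome 7, 33 of 126 Vmn1r and 29 of 52 Vmn2r genes were named. On chromosome 6 the counts were 25 of 51 Vmn1r and 9 of 9 Vmn2r, and on chromosome 13 they were 15 of 36 Vmn1r. All protein-coding Vmn2r genes of chromosomes 3 (7), 10 (8) and 14 (2) were named. In both lines no segment covered chr7:21955784-23274281, a stretch of 1.32 Mb that holds 28 protein-coding Vmn1r genes and no member. Another 146 unnamed receptors lay within a segment, so a segment's copy number extended over them without a bin of their own.

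**Figure D1:**
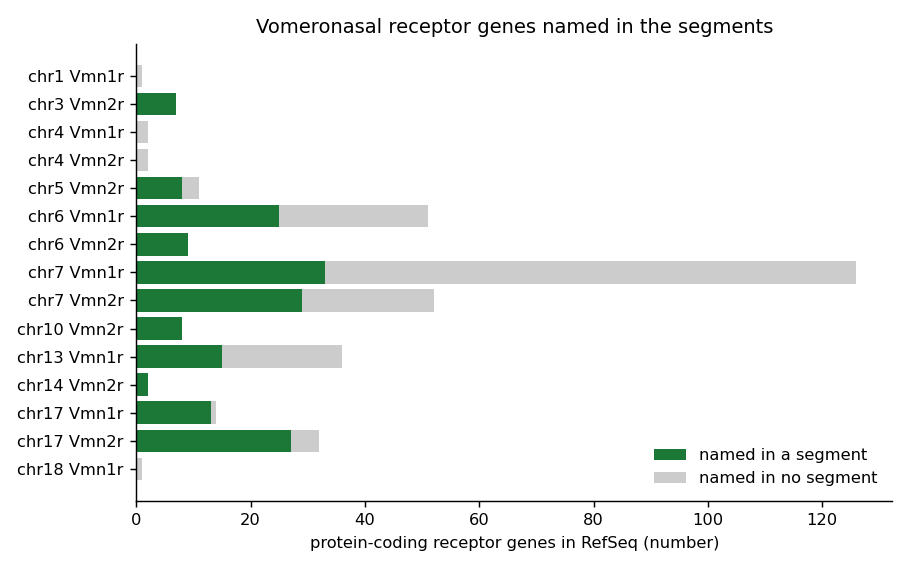
Number of protein-coding vomeronasal receptor genes in RefSeq by chromosome (chr) and family, split into genes named in a segment (green) and genes named in none (grey). The longest grey bar is Vmn1r of chromosome 7, with 93 of 126 genes not named.

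Near copies were common among the unnamed genes. For each receptor in the table of bases around starts (300 bases, 163 of 178 members present, the start inside the annotated gene for 18 of 323 receptors), the identity to the most alike other receptor was taken without gaps. Named Vmn1r genes had a median of 49.3% (n = 77) and unnamed ones 98.3% (n = 129). Named Vmn2r genes had a median of 71.3% (n = 86) and unnamed ones 97.2% (n = 30). At least 90% identity was reached by 9.09% of named and 55.8% of unnamed Vmn1r genes, and by 25.6% of named and 73.3% of unnamed Vmn2r genes. Among the unnamed Vmn1r genes, 54 matched another receptor at every base, against 0 named ones. Most of the compared bases lie before the start, so likeness of the coding exons was not measured. How the authors chose bins, and whether likeness played a part, was not tested.

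**Figure D2:**
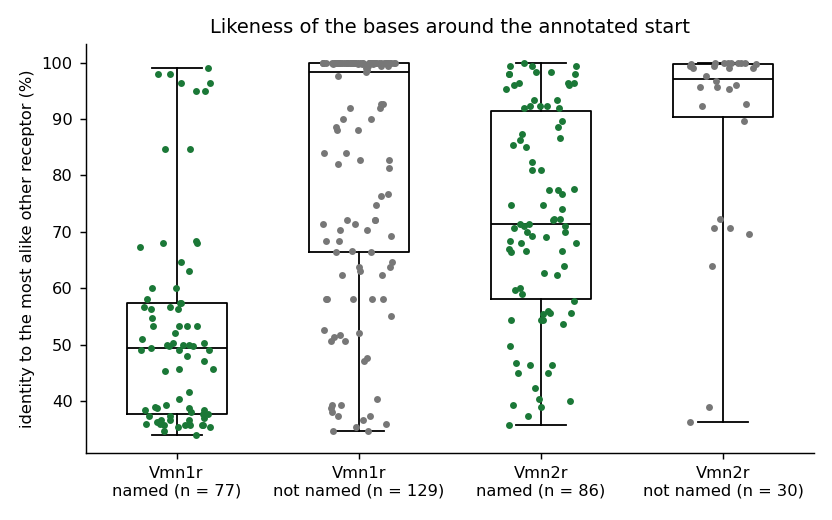
Identity (%) of the 300 bases around the start given in RefSeq's table to those of the most alike other vomeronasal receptor, for named and not named genes of each family. Each point is a gene, boxes show quartiles and median, and whiskers reach the extremes. The medians were 49.3% and 98.3% for Vmn1r, and 71.3% and 97.2% for Vmn2r.

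The same bases were poor in G and C. Their median GC content was 36.5% in members, 36.7% in unnamed receptors, 35.0% in Olfr genes and 52.7% over all 32851 entries. The motif TATAAA, searched on both strands, occurred in 33.5% of the 164 member entries (41.6% for Vmn1r and 26.4% for Vmn2r) and in 13.6% of all entries. It occurred in 37.1% of the entries of unnamed receptors and 41.0% of those of Olfr genes, so it was not particular to the members. A match of these letters is a description, not a site.

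The members fell into 22 clusters when a gap of over 1 Mb ended a cluster, and 6 clusters held 1 gene each. The largest ran from Vmn2r90 to Vmn1r237 on chromosome 17 with 19 Vmn2r and 13 Vmn1r genes over 3.61 Mb (chr17:17703941-21314886). The next ran from Vmn2r52 to Vmn1r89 on chromosome 7 with 20 Vmn1r and 5 Vmn2r genes over 3.06 Mb (chr7:10158652-13220289). Positions of clusters are those of RefSeq, build GRCm38.p6. Copy number was given per segment as log2, the log2 ratio of coverage to the authors' reference, and as an integer in which 2 is normal for an autosome. The integers of all segments followed log2 cutoffs of -0.25 for a loss and 0.2 for a gain. In WES-15376T, 65 members (36.5%) were called lost, 80 (44.9%) at 2 copies and 33 (18.5%) gained. In WES-14837T, 69 (38.8%) were called lost, 60 (33.7%) at 2 copies and 49 (27.5%) gained. Over all gene names with a single call the background was 30.0% lost and 9.14% gained in WES-15376T, and 28.8% lost and 21.5% gained in WES-14837T. The 178 members lay in 15 and 14 segments, so these shares rest on few independent pieces of DNA.

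The lines gave a different call for 70 members (39.3%), against 29.3% of all gene names. No member had opposite calls. The shares of opposite and of shared calls over all gene names are not given here, so these counts describe the members only. 65 members were lost in both, 8 gained in both and 35 at 2 copies in both. Of the rest, 41 had 2 copies in WES-15376T with a gain in WES-14837T, 4 had 2 copies with a loss, and 25 had a gain with 2 copies, in the same order of the lines.

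**Figure D3:**
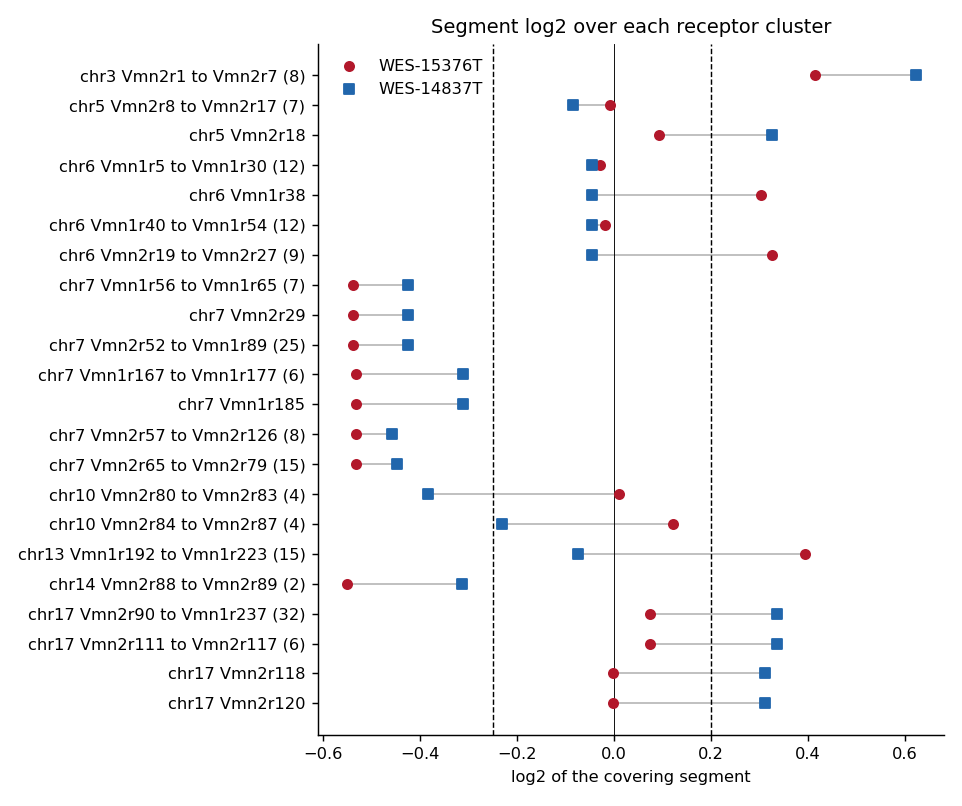
Log2 of the covering segment for each of the 22 receptor clusters (number of members in brackets) in WES-15376T (red circles) and WES-14837T (blue squares). Dashed lines mark the loss and gain cutoffs of -0.25 and 0.2. All chromosome 7 clusters sit below -0.25 in both lines, and the chromosome 13 cluster is gained in WES-15376T only.

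Chromosome 7 carried most of the losses. All 63 of its members, 33 Vmn1r and 30 Vmn2r, were called at 1 copy in both lines. In WES-15376T the 33 genes from Vmn1r56 to Vmn1r89 lay in a segment at log2 -0.54 and the other 30, from Vmn1r167 to Vmn2r79, in one at -0.53. The first segment spanned 18.8 Mb (chr7:3108994-21955783) with 311 gene names. The second spanned 122 Mb (chr7:23274282-145340959) with 1609, so these losses took in most of the chromosome and were not particular to the receptors. In WES-14837T the first 33 lay in a segment with the same borders at -0.42. The cluster from Vmn1r167 to Vmn1r177 (chr7:23504642-23866449) and the gene Vmn1r185 were at -0.31, the cluster from Vmn2r57 to Vmn2r126 (chr7:41399732-43048106) at -0.46 and the cluster from Vmn2r65 to Vmn2r79 (chr7:84940169-87037968) at -0.45. The log2 of WES-14837T was thus closer to 0 in each of them. The pair Vmn2r88 and Vmn2r89 of chromosome 14 (chr14:51411001-51461293) was the other loss shared by the lines, at -0.55 and -0.31.

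The 8 Vmn2r genes of chromosome 3, from Vmn2r1 to Vmn2r7 (chr3:64078172-64844743), were the gain shared by the lines. They lay at log2 0.41 in WES-15376T, in a segment of 12.8 Mb and 656 bins, where a bin is a stretch over which coverage is averaged. In WES-14837T they lay at 0.62 in a segment of 2.42 Mb and 140 bins with 20 gene names, between neighbors at 0.44 and 0.38. It was the highest log2 over any receptor cluster in either line, and both lines were called at 3 copies.

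The 15 Vmn1r genes of chromosome 13, from Vmn1r192 to Vmn1r223 (chr13:22187146-23250323), differed most in log2 between the lines. In WES-15376T they lay at log2 0.39 and 3 copies in a segment of 1.46 Mb, chr13:22005041-23460658, between neighbors at -0.05 and -0.04. Of the 21 gene names of that segment, 15 were members. It rested on 56 bins, or 38.5 bins per Mb, against 87.8 per Mb over the autosomes, the lowest density of any segment with members. In WES-14837T the same genes lay in a segment of 25.4 Mb and 1729 bins at -0.07 and 2 copies, and no border was placed at the cluster.

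On chromosome 17 all 40 members, 27 Vmn2r and 13 Vmn1r from Vmn2r90 to Vmn2r120, were at 2 copies in WES-15376T and at 3 in WES-14837T. The 38 genes up to Vmn2r117 had log2 0.07 and 0.34. Vmn2r118 and Vmn2r120 had -0.0025 and 0.31. On chromosome 10, Vmn2r80, Vmn2r81, Vmn2r82 and Vmn2r83 (chr10:79148816-79492154) had log2 0.01 in WES-15376T and -0.38 in WES-14837T, where they were called lost. Vmn2r84 to Vmn2r87 on the same chromosome (chr10:130385800-130497379) had 0.12 and -0.23. The latter stayed just inside 2 copies.

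All 34 members of chromosome 6 lay in 1 segment of WES-14837T, at log2 -0.05. In WES-15376T they lay in several. The 12 Vmn1r genes from Vmn1r5 to Vmn1r30 (chr6:56970335-58443624) were at -0.03 and the 12 from Vmn1r40 to Vmn1r54 (chr6:89711261-90270053) at -0.02, whereas Vmn1r38 was at 0.30 and the 9 Vmn2r genes from Vmn2r19 to Vmn2r27 (chr6:123308333-124231784) at 0.33. The last 10 were called at 3 copies. On chromosome 5 the 7 Vmn2r genes from Vmn2r8 to Vmn2r17 (chr5:108797193-109453387) were at -0.01 and -0.08, and Vmn2r18 was at 0.09 in WES-15376T and 0.32, called gained, in WES-14837T.

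The deposited segments also give a B-allele frequency (BAF), the fraction of reads with the variant allele at variant sites of a segment. The number of sites is not in the files, so its precision is unknown. Its length-weighted autosomal median was 0.077 and 0.061, in that order of the lines. Above 0.25 lay the segments of 54 and 49 members. In WES-15376T these were the Vmn1r40 to Vmn1r54 cluster at 0.78, Vmn2r19 to Vmn2r27 at 0.74, and the 33 chromosome 7 genes up to Vmn1r89 at 0.36. In WES-14837T they were all 34 chromosome 6 genes at 0.40, in 1 segment of 127 Mb and 1019 gene names, and the chromosome 13 cluster at 0.41. Of the autosomal segments with a BAF, 94.3% to 96.2% were lower than these in WES-15376T. In WES-14837T it was 95.3% to 95.9%. The share of all gene names above 0.25 is not given here. The high values in WES-15376T therefore stood beside calls of 2, 3 and 1 copies.

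Genes in segments with an absolute log2 of about 0.40 or more were listed one by one by the authors with a depth of their own, the mean coverage over the gene's bins. 73 members (41.0%, against 35.2% of all gene names) were listed in WES-15376T and 64 (36.0%, against 22.3%) in WES-14837T. The smallest absolute log2 in the gene lists was 0.401 and 0.404, respectively. The chromosome 3 segment of WES-15376T at 0.415 was just inside and the chromosome 13 segment at 0.393 just outside. The listed members had a median of 1 bin for Vmn1r (range 1 to 2) and 4 bins for Vmn2r (range 1 to 8) in both lines. The Vmn1r depths thus mostly rest on 1 stretch of DNA each.

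Listed receptors were covered more deeply than most listed genes of their chromosome. In WES-15376T the median ratio to the chromosome's other listed genes was 1.85 (log2 0.89), and 70 of 73 members were above 1. In WES-14837T it was 1.69 (log2 0.76), and 59 of 64 were above 1. The SD among members was 0.51 and 0.53 on the log2 scale. Listed Olfr genes gave 1.78 (log2 0.83, n = 318) and 1.75 (log2 0.80, n = 241). Their comparison genes held neither Olfr genes nor vomeronasal receptors, whereas those of the members above included Olfr genes. With Olfr genes left out, the members' median was log2 0.93 and 0.82, close to the Olfr values. Depth, unlike log2, is not relative to a reference, and on chromosome 7 the high depths stood beside calls of 1 copy.

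The Vmn1r result changed with the genes it was set against. The comparison genes were next those with the same number of bins on the same chromosome, Olfr genes included. The median ratio was then 1.38 for Vmn1r in WES-15376T (24 of 33 above 1) and 1.24 in WES-14837T (16 of 26 above 1). For Vmn2r it was 1.90 (38 of 40) and 1.80 (34 of 38). Among genes of chromosome 7 with 1 bin and 600 to 1300 bases, members had a median depth of 64.1 in WES-15376T (n = 31), Olfr genes 57.1 (n = 196) and other genes 31.8 (n = 54). In WES-14837T the medians were 65.0 (n = 24), 63.7 (n = 173) and 38.3 (n = 32). Most of these 1-bin genes were Olfr genes, whose median was nearer that of the members than that of the other genes. What capture, GC content or reads from near copies contributed to these depths was not tested.

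**Figure D4:**
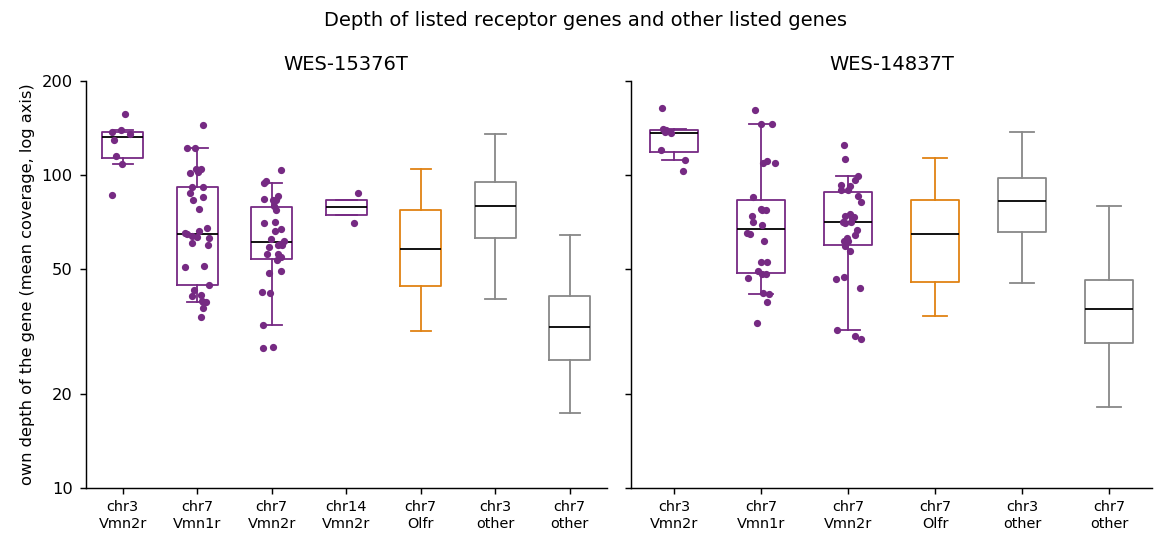
Own depth (mean coverage, log axis) of listed vomeronasal receptors by chromosome and family, with listed Olfr genes and other listed genes, in WES-15376T (left) and WES-14837T (right). Points are receptors, boxes show quartiles and median, and whiskers run from the 5th to the 95th percentile. Receptor medians on chromosome 7 lie near the Olfr median and above the other genes.

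The 8 chromosome 3 genes had the highest median depth of the listed groups, 133 and 137. The other listed genes of chromosome 3 were also deep, with medians of 79.8 and 82.8, against 33.8 and 39.5 on chromosome 7. Relative to their chromosome the 8 genes had the lowest median ratio of the listed groups, 1.66 and 1.65. Their depths ranged from 86.6 for Vmn2r1 to 157 for Vmn2r4 in WES-15376T, and from 103 to 164 for the same genes in WES-14837T. Vmn2r3, with 6 bins, had 135 and 137, and Vmn2r7, with 5 bins, had 130 and 141. The pseudogene Vmn2r-ps11 had the most bins (8) and depths of 108 and 112. Its listed stretch overlaps that of Vmn2r7, so the 2 values are not independent. The order of Vmn2r1 as lowest and Vmn2r4 as highest was the same in both lines.

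On chromosome 7 the Vmn1r genes spanned a wide range. The lowest, median and highest depths were 35.1, 64.6 and 145 in WES-15376T (n = 33), and 33.8, 67.2 and 162 in WES-14837T (n = 26). Vmn1r56 was highest in both, at 4.28 and 4.09 times the median of the other listed genes. Vmn1r62 and Vmn1r186 have identical values, 122 and 146, because they are listed over the same bin, and Vmn1r63 shares bins with Vmn1r187. Vmn1r56, Vmn1r62, Vmn1r186, Vmn1r63 and Vmn1r187, in the first cluster of the chromosome, were all above 100 in both lines, whereas Vmn1r65 (66.0 and 85.0) and Vmn2r28 (83.4 and 96.4) of that cluster were below 100, and Vmn1r66 to Vmn1r71 had 35.1 to 44.7 in WES-15376T. The 6 genes from Vmn1r167 to Vmn1r177, which include the near copies Vmn1r168 (105) and Vmn1r177 (101) shown above, had 85.0 to 105 in WES-15376T. They were not listed in WES-14837T.

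The Vmn2r genes of chromosome 7 had 28.0, 61.0 and 104 as lowest, median and highest depth in WES-15376T, and 30.0, 70.9 and 125 in WES-14837T (n = 30). Vmn2r55 was highest among genes with at least 3 bins, at 104 and 125. Its neighbor Vmn2r54 had 59.7 and 59.4. Vmn2r59 (28.0 and 30.0), Vmn2r65 (28.1 and 30.5, 7 bins) and Vmn2r76 (33.2 and 32.0) were the members below the median of the chromosome's other listed genes in both lines. On chromosome 14, listed in WES-15376T only, Vmn2r88 had 87.5 and Vmn2r89 70.5.

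The receptors kept their depths from line to line. Over the 64 members listed in both, the log2 ratio of WES-15376T to WES-14837T had a median of -0.12 (SD 0.14), and 55 were lower in WES-15376T. For the 3366 other genes listed in both it was -0.17 (SD 0.22). After the difference in segment log2 was taken off, the median was -0.03 for members and -0.09 for other genes. By chromosome it was 0.15 for the 8 members of chromosome 3, against -0.07 for its other genes. On chromosome 7 it was -0.04 for 56 members, against -0.12. The chromosome 3 members had a median depth ratio of -0.05, and their segments differed by -0.21. The depth ratio holds the difference in mean depth between the libraries, whereas segment log2 is relative to a reference. The medians left after the segment difference hold it too, so they can be set beside each other but not read by their sign. Across members Pearson's r between the log2 depths was 0.974 (n = 64), and across the 1765 other genes of chromosomes 3 and 7 it was 0.967. These are descriptions across genes that share baits and sequence in both libraries. The ratio ran from -0.54 for Vmn2r29, with depths of 77.3 and 112, to 0.23 for Vmn1r71, with 39.6 and 33.8, and both genes had 1 bin.

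**Figure D5:**
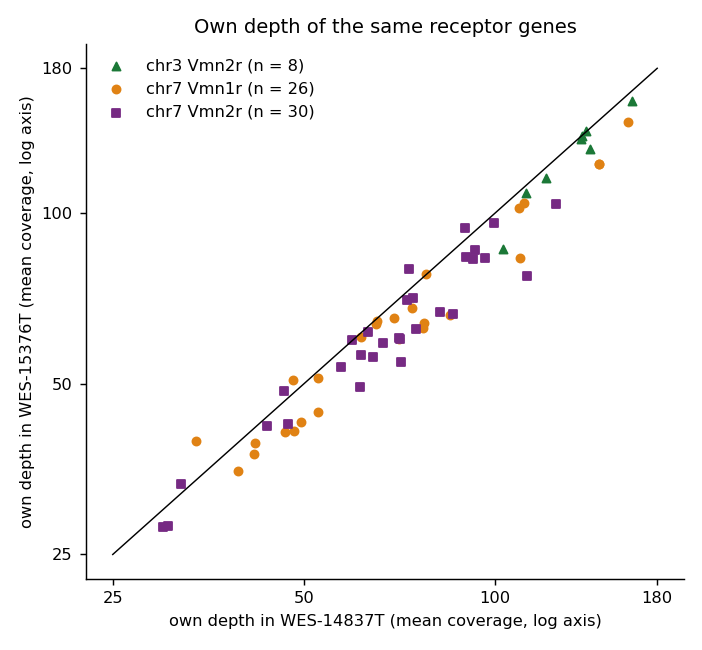
Own depth (mean coverage, log axes) of the 64 receptors listed in both lines, WES-15376T against WES-14837T. The line marks equal depth. Most points (55 of 64) lie below it, and the chromosome 3 genes are at the upper end. Depths are not scaled for the mean depth of each library.

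The genes through which vomeronasal neurons signal did not share 1 copy-number state. Trpc2, the cation channel of these neurons, was lost in both lines (log2 -0.53 and -0.34). So were Gng8, a G protein gamma subunit (-0.54 and -0.42), Omp, a marker of mature chemosensory neurons (-0.53 and -0.34), and the chloride channel gene Ano1 (-0.53 and -0.44). All 4 are on chromosome 7, and Gng8 lay in the same segment as the 33 receptors from Vmn1r56 to Vmn1r89 in both lines. Gnai2 was lost in WES-15376T (-0.46) and at 2 copies in WES-14837T (0.10). Gnao1 was at 2 copies in both (0.11 and -0.16). Ano2, another chloride channel gene, was gained in WES-15376T (0.33) with the Vmn2r genes of chromosome 6 and at 2 copies in WES-14837T (-0.05).

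Calls differed among the other chemosensory families, and each gene has the call of the segment it lies in. Of 989 Olfr genes, 45.8% were lost and 2.22% gained in WES-15376T, and 31.2% lost and 17.6% gained in WES-14837T. Over all gene names the shares were 30.0% lost and 9.14% gained in WES-15376T, and 28.8% and 21.5% in WES-14837T. All 6 formyl peptide receptor genes (Fpr) had the calls of the chromosome 17 receptors, 2 copies in the first line and a gain in the second. Of 35 bitter taste receptor genes (Tas2r), 24 were gained in WES-15376T and 1 in the other line. The 3 Tas1r genes, for sweet and umami taste, were lost in both lines, and the 10 trace amine receptor genes (Taar) were at 2 copies in both.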

How the data were processed

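Genomic DNA of 15376T and 14837T was captured by exome baits and sequenced on an Illumina NovaSeq instrument. The labels name Agilent SureSelect baits and the study's methods NimbleGen baits, both human designs. The build is mm10 per the labels. One allele of the mice is not reported here. The aligner, the caller and the reference for log2 were not given in the sources used here, and the columns are those of CNVkit. The authors deposited, per segment, log2, BAF as a fraction, integer copy-number counts, counts of bins and depth (coverage signal). They deposited the same log2, depth and counts of bins for single genes of the more strongly changed segments. A gene's log2 there is its segment's. A weight score, also deposited by the authors, was not used. Autosomal bins numbered 209429 and 209431, and mean depth was 43.4 and 47.5 in WES-15376T and WES-14837T. Read totals were not given, so counting intervals could not be computed.

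Names were read from the segments' gene lists, and positions from RefSeq (GRCm38.p6) or, for the 2 members whose listed position did not overlap it (Vmn1r186 and Vmn1r187), from the gene list. Calls followed the deposited copy number. Own depth was compared as log2 with the median of the other listed genes of the chromosome. Likeness of start regions was the best ungapped match within 10 bases of shift. Named genes were those with most bins, the highest and lowest depth with at least 3 bins, the ends of clusters, and genes with different calls. Vmn1r62, Vmn1r65, Vmn1r186, Vmn1r187, Vmn1r66, Vmn1r71, Vmn1r167 to Vmn1r177, Vmn2r4, Vmn2r28, Vmn2r54, Vmn2r76 and Vmn2r88 were named after their values were seen. Python 3.11.15 and pandas 2.3.3 were used, and functions were tested on simulated data. The members and lists were chosen with earlier results of these data known.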

Additional observations from a re-analysis of the deposited data

How the results depend on the processing

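Of 56 alternatives, 50 left the values close to those reported and 6 moved them. The 50 include the median bins per member set against genes of the same segment, which could not differ. Shares and counts have no sign to change, and no depth value changed sign. At an absolute log2 of 0.5 the share gained in WES-15376T fell to 0%, the share lost in WES-14837T fell to 0%, and the share gained in WES-14837T to 4.49%, since the log2 of those segments lies between the default cutoffs and 0.5. Counting each segment once gave 20% lost in WES-15376T, because 63 of the 65 lost members sit in 2 segments. The median log2 depth of members was 0.65 in WES-15376T among genes with at least 5 bins (16 members), and 0.52 in WES-14837T against genes within 5 Mb with the same number of bins, an alternative chosen after seeing the data. For these 2 the cause was not tested. Leaving out members with proteins at least 95% identical was not run, as no protein sequences were used here. No paired analysis was possible because no value came from a test and 1 library stood for a line. With no replicates, no spread between libraries stands behind any difference between the lines.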
